A study of Mus musculus with 2 samples.

Results

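The set described here is 47 genes for enzymes that write or erase histone acetylation and histone lysine methylation, and for 4 proteins that work with them. The genes were chosen by name from the GENCODE M21 annotation, as writers against erasers of each mark. The rule uses no measured value, though earlier results of these data were known when it was made. The deacetylases of the NuRD complex were not taken. They are 47 of the 22015 nuclear protein-coding genes and of the 55536 annotated genes in the deposited gene tables. By role they are 24 writers, 19 erasers and 4 cofactors (Ncor1, Kmt2e, Suz12 and Eed), and cofactors were counted on neither side. All 47 symbols were found once each.

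Writers add an acetyl or methyl group to a lysine of a histone tail or core, and erasers remove it. Acetylation by p300, CBP and the GNAT and MYST families goes with open enhancers and promoters, and histone deacetylases and sirtuins reverse it. Methylation of H3K4 marks promoters and enhancers, H3K36 and H3K79 the bodies of transcribed genes, and H3K27 and H3K9 repressed chromatin. In macrophages the balance of these enzymes at enhancers and inflammatory promoters is known to shape the response to bacterial lipopolysaccharide.

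The RNA came from the chromatin fraction of bone marrow-derived macrophages of C57BL/6J mice, primary cells grown from marrow. They are the 0-minute point of a stimulation with 100 ng/ml lipid A, the part of endotoxin that activates Toll-like receptor 4. No knockout, transgene or other agent is named in the labels, and age and sex were not collected. After removal of ribosomal RNA, total RNA was sequenced in a single group of 2 libraries; the RNA input was 250 ng in replicate 1 and 500 ng in replicate 2. They are labelled biological replicates but share a donor entry, so separate animals are not established and the spread between them may be technical. With a single group there is no contrast between conditions, so every comparison below is a description with no test. Levels are in TPM, an abundance scaled to a fixed sum per library that divides the reads of a gene by transcript length, as the mean ± SD of the 2 libraries (n = 2). The annotated genes held 10933708 expected counts in replicate 1 and 14168886 in replicate 2. All 8 macrophage markers examined were detected, at mean levels between 13.7 TPM (Fcgr1) and 176 TPM (Lyz2). Of 9 markers of other cells none reached 1 TPM in the gene table, where the highest was the B-cell gene Cd79a at 0.240 TPM and 6 had 0 counts in both libraries. The second transcript table gave 1.02 and 1.74 TPM for the stromal marker Col1a1 and 1.24 and 1.29 TPM for the mast-cell marker Cpa3. Orders of genes below are those of the gene table over all transcripts unless another measure is named. Chromatin RNA of a gene depends on how many cells transcribe it and how much RNA each holds, and these cannot be told apart.

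Part of the TPM of these genes was assigned to retained-intron transcripts of the annotation, and the lines show what such a transcript holds. Each gives an annotated boundary of a coding intron that lies within the leading retained-intron transcript by mean TPM. They are given for the 5 members with the highest retained-intron share of TPM and for Ezh2, whose transcript spans 3 whole introns. In Eed the leading one differed between libraries (Eed-206 in replicate 1, Eed-203 in replicate 2), and the boundary is that of Eed-203. The tables count reads per transcript, not over a boundary. Exon bases are in capitals and intron bases in lower case, 5′ to 3′ on the strand of the gene, from the GENCODE M21 transcript sequences on mm10.
Eed donor: GGAAGCAACAGAgtgagtgtcgggtggggg
Kat6b donor: GAGAAAGACCAGgtgagtgagcccggcggt
Kat8 acceptor: gtgtacttcttatcccagACCTATGCAGAG
Kdm1a acceptor: attgttctgtttccccagCTCCAATACTAT
Setdb1 donor: GTGTCGGGATAAgtgagttggtggggtgta
Setdb1 acceptor: acccttttctctctgcagATCCAAATGTGC
Ezh2 donor: AACTGAAAAAGGgtcagcatcctcccatct
Ezh2 acceptor: atacatttatccctaaagGTCAAAACCGCT

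The Eed donor lies at chr7:89972213-89972242 on the minus strand and opens an intron of 625 bases. The Kat6b donor lies at chr14:21517487-21517516 on the plus strand, at the start of an intron of 92255 bases. The Kat8 acceptor lies at chr7:127920218-127920247 (plus strand) and the Kdm1a acceptor at chr4:136552577-136552606 (minus strand). In Setdb1 the donor at chr3:95338328-95338357 and the acceptor at chr3:95337254-95337283, both on the minus strand, bound 1 intron of 1080 bases that the transcript Setdb1-204 holds in full. In Ezh2 the donor at chr6:47542348-47542377 and the acceptor at chr6:47540844-47540873 bound an intron of 1510 bases, also on the minus strand. Across the 34 members with a retained-intron transcript and at least 100 counts in each library, the leading one crossed a donor in 25, an acceptor in 21 and spanned a whole coding intron in 8. Boundaries of Kdm3b and Hdac3, on chromosome 18, were left out of the reading. Of those read, 24 of 24 donors began with GT, and 19 of 19 acceptors ended with AG. These bases come from the annotated sequence, not from reads of the libraries.

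The chromatin RNA of every enzyme gene in the set was detected. All 47 members reached 1 TPM in both libraries, against 46.7% of nuclear protein-coding genes. The member median was 29.4 TPM in replicate 1 and 29.5 TPM in replicate 2, against a median of 11.0 ± 0.332 TPM over the 10284 detected protein-coding genes, and 43 members lay above that median. A member had between 139 counts (Kat8 in replicate 1) and 16664 counts (Kmt2d in replicate 2), and the members together took 0.837% of the counts in each library. Writers had a median of 31.9 ± 1.07 TPM, erasers 20.6 ± 1.13 TPM and the 4 cofactors 56.2 ± 4.51 TPM. On protein-coding transcripts the cofactors were no longer highest, with medians of 18.9 TPM (writers), 11.3 TPM (erasers) and 14.5 TPM (cofactors). The highest level was that of the corepressor gene Ncor1 (159 ± 6.28 TPM, percentile 98.3 of detected genes) and the lowest that of the class IIa deacetylase gene Hdac9 (4.79 ± 0.537 TPM, percentile 25.9).

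**Figure D1:**
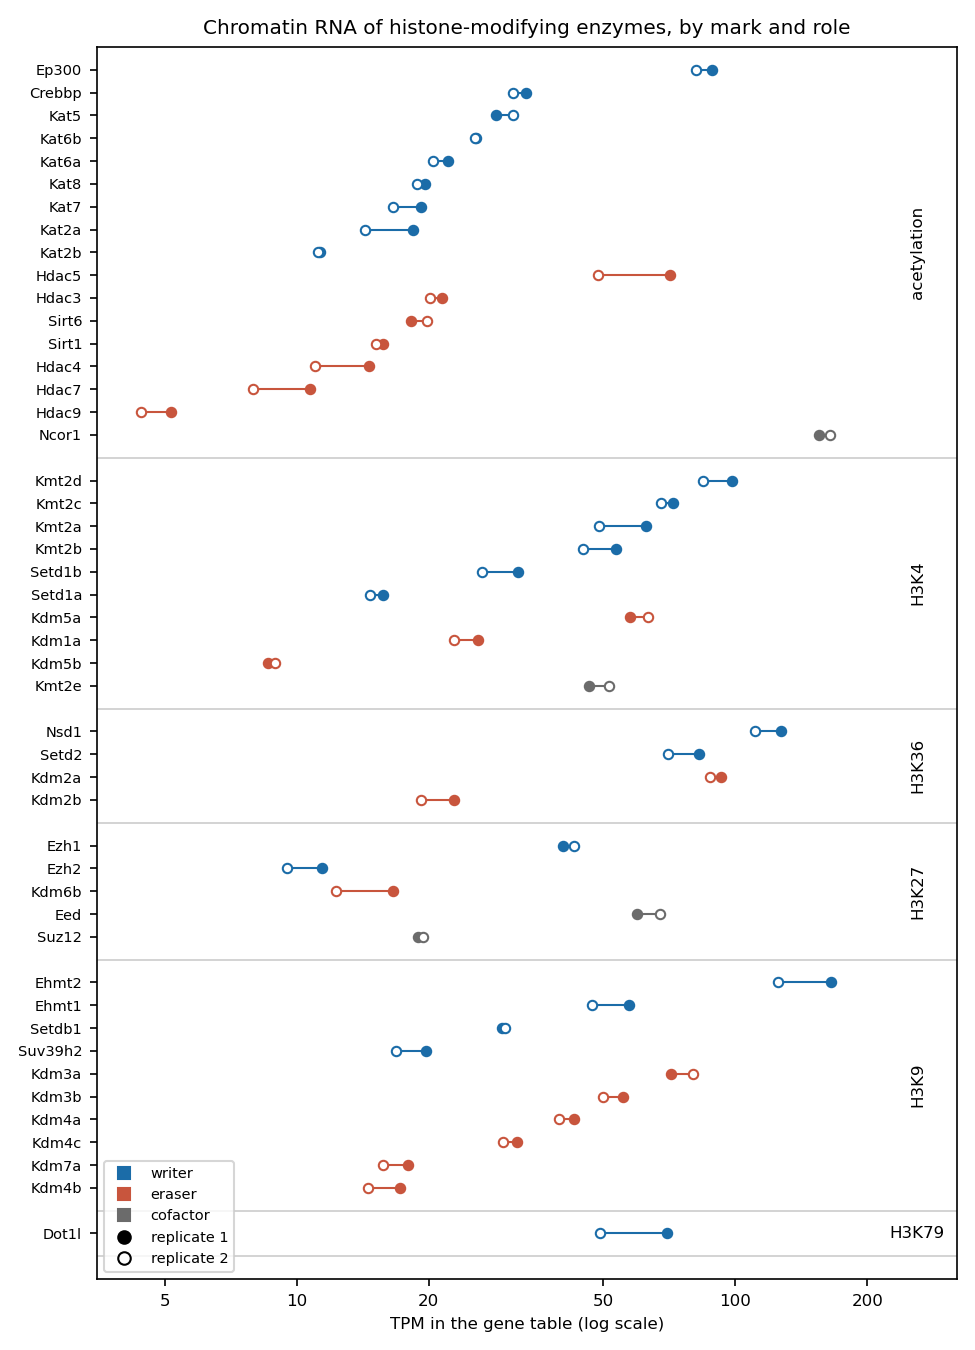
Level of each of the 47 genes on a log axis in TPM, grouped by mark with writers above erasers and cofactors; filled points are replicate 1, open points replicate 2, and a line joins them. The levels run between 4.79 TPM (Hdac9) and 159 TPM (Ncor1) as means, and the libraries lie farthest apart for Hdac5, at 71.1 and 48.6 TPM.

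Among the acetyltransferases, p300 led. Ep300 (chr15:81585351-81652077, plus strand) had 88.3 and 81.5 TPM in replicates 1 and 2, with 3230 and 4771 counts. Its paralog Crebbp, for CBP (chr16:4081328-4213997, minus strand), had 33.4 and 31.1 TPM. Both acetylate H3K27 and H3K18 at enhancers, and the Ep300 gene was 2.64 and 2.62 times as high as Crebbp, with no overlap between the libraries. On protein-coding transcripts alone the order was not stable, at 0.955 and 1.16 times.

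The 5 MYST genes lay close together, between 17.9 ± 1.85 TPM (Kat7, the HBO1 enzyme of H3K14 and H4) and 29.8 ± 1.90 TPM (Kat5, the TIP60 enzyme of H4 and H2A.Z). Kat6b had 25.6 and 25.5 TPM and Kat6a 22.1 and 20.4 TPM; they encode H3K23 acetyltransferases, and this order turned over on protein-coding transcripts, where Kat6b was 0.342 and 0.343 times Kat6a. Kat8, the H4K16 acetyltransferase gene, had 19.6 and 18.8 TPM from only 139 and 196 counts. The GNAT genes for H3K9 acetylation were the lowest writers of the mark in the gene table, but Kat2b lay above Kat8 and Kat6b on protein-coding transcripts. Kat2a (GCN5) had 18.4 and 14.3 TPM and Kat2b (PCAF) 11.3 and 11.2 TPM, but on protein-coding transcripts Kat2a was 0.544 and 0.463 times Kat2b. The leading Kat2a transcript in both libraries and both transcript tables was a processed transcript without a coding frame, Kat2a-204, with 43.5% and 48.2% of the Kat2a TPM.

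Among deacetylases, Hdac5 was highest over all transcripts at 71.1 and 48.6 TPM (59.9 ± 15.9). On protein-coding transcripts it had 15.4 and 10.8 TPM, overlapping Sirt6 at 11.4 and 12.8 TPM. It belongs to class IIa, whose members have weak deacetylase activity of their own and act as scaffolds for Hdac3 complexes. Within class IIa, Hdac4 followed at 14.6 and 11.0 TPM, Hdac7 at 10.7 and 7.93 TPM and Hdac9 at 5.17 and 4.41 TPM. All 4 class IIa genes had lower TPM in replicate 2, as did 36 of the 47 members. On TPM this count was not made over all protein-coding genes. Hdac3 (chr18:37935844-37955016, minus strand), the catalytic partner of NCoR, had 21.4 and 20.1 TPM, while its corepressor Ncor1 (chr11:62316426-62458541, minus strand) had 155 and 164 TPM. The sirtuins, which use NAD, were at 15.7 and 15.2 TPM (Sirt1) and 18.2 and 19.8 TPM (Sirt6, for H3K9 and H3K56).

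The H3K4 methyltransferases carried the most counts of the set. The 6 writer genes took 35777 counts in replicate 1 and 41983 in replicate 2, of 91553 and 118658 over all members. Counts are not divided by transcript length. In TPM these genes held a smaller part, 334 and 287 of 2100 and 1912 over all members. Kmt2d (chr15:98831669-98871204, minus strand), for the MLL4 enzyme of enhancer monomethylation, had 98.2 and 84.3 TPM with 15183 and 16664 counts. Its paralog Kmt2c, for MLL3, had 72.1 and 67.6 TPM, so Kmt2d was 1.36 and 1.25 times as high, an order that also held on protein-coding transcripts (1.71 and 1.54) and in the second transcript table (1.52 and 1.44).

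The MLL1 gene Kmt2a and the MLL2 gene Kmt2b overlapped, at 62.5 and 49.0 TPM for Kmt2a and 53.4 and 45.0 TPM for Kmt2b. The trimethylating SET1 enzymes were lowest: Setd1b had 31.9 and 26.5 TPM and Setd1a 15.7 and 14.7 TPM. The order of these SET1 genes turned over in the second transcript table, where Setd1b was 0.969 and 0.880 times Setd1a. For Setd1a, 51.8% of exon bases are shared with the overlapping gene model Gm49388, on the same strand. The tables gave Setd1a 928 counts in replicate 1 and 1175 in replicate 2, and Gm49388 0 and 53.1.

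Of the H3K4 demethylases, Kdm5a was highest at 57.4 and 63.1 TPM, with 2065 and 3077 counts. It removes di- and trimethylation, as does Kdm5b, which had 8.62 and 8.94 TPM. This was the widest ratio of the 11 paralog pairs examined, 6.66 and 7.06, but on protein-coding transcripts it was 2.57 and 3.32, less than for Ezh1 over Ezh2 and Kdm2a over Kdm2b. Kdm1a, for the flavin-dependent enzyme LSD1, had 25.9 and 22.8 TPM. The cofactor of the mark, Kmt2e (MLL5), a SET-domain protein without clear methyltransferase activity, had 46.4 and 51.6 TPM; it shares 9.31% of its exon bases with Srpk2 on the opposite strand. Kmt2e held 2129 and 3302 counts, and Srpk2 1545 and 2294.

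For H3K36, the dimethylating enzyme gene Nsd1 (chr13:55209782-55318325, plus strand) had 127 and 111 TPM with 6926 and 9395 counts, the third highest level of the set. Setd2 (chr9:110532597-110618633, plus strand), for the main enzyme of H3K36 trimethylation, had 82.8 and 70.2 TPM. Against them stood the Jumonji demethylases Kdm2a at 92.7 and 87.6 TPM and Kdm2b at 22.8 and 19.2 TPM. Kdm2a was 4.07 and 4.57 times Kdm2b, and the order held in each of the 3 measures.

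For H3K27, the Polycomb repressive complex 2 was uneven at the level of chromatin RNA. Its methyltransferase gene Ezh1 (chr11:101191115-101226463, minus strand) had 40.4 and 42.8 TPM with 853 and 1194 counts, and Ezh2 (chr6:47530139-47595341, minus strand) 11.4 and 9.48 TPM with 154 and 223 counts. Ezh1 is the form typical of non-dividing cells and Ezh2 that of dividing ones. Ezh1 was 3.53 and 4.51 times Ezh2 on all transcripts, 5.89 and 6.18 times on protein-coding ones and 2.47 and 3.07 times in the second transcript table.

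Among the other core subunits, Suz12 had 18.9 and 19.4 TPM. Eed (chr7:89954654-89980983, minus strand), which binds the trimethyl mark, had 59.6 and 67.2 TPM from 363 and 540 counts. On protein-coding transcripts Eed had only 8.67 and 7.80 TPM, which took it to rank 36 of the 47 members, against rank 10 on all transcripts. Most of the Eed level was on retained-intron transcripts, among them Eed-203, of 491 bases, which had 9.20 and 21.6 TPM from 24.1 and 83.5 expected counts.

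Kdm6b (chr11:69398508-69413675, minus strand), the demethylase JMJD3 that lipopolysaccharide is known to induce in macrophages, had 16.6 and 12.3 TPM with 752 and 832 counts at the 0-minute point. It was the only gene counted as an H3K27 eraser; Kdm7a, whose enzyme also acts on H3K27, was counted for H3K9. Its X-linked paralog Kdm6a (UTX), outside the set, had 59.9 and 56.8 TPM.

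For H3K9, Ehmt2 (chr17:34898469-34914052, plus strand) had the highest mean of the enzyme genes over all transcripts, at 165 and 125 TPM (145 ± 28.2) with 3280 and 3704 counts. On protein-coding transcripts Kmt2d was higher (90.6 TPM, against 70.7 for Ehmt2), and in the second transcript table Nsd1 (96.7 and 133 TPM) and Kdm2a (90.1 and 135 TPM) reached the level of Ehmt2 (97.9 and 116 TPM). It encodes G9a, which mono- and dimethylates H3K9 as a dimer with GLP, the product of Ehmt1, at 57.3 and 47.2 TPM. Ehmt2 was 2.88 and 2.65 times Ehmt1, in the same order in each measure. The trimethylating enzymes were lower: Setdb1, which acts with KAP1 on retroelements, had 29.4 and 29.9 TPM, and Suv39h2, which acts on pericentric chromatin, 19.7 and 16.8 TPM. The coding transcript held 100.0% of the Suv39h2 TPM. Suv39h2 had 835 and 1064 counts, and its overlapping neighbour on the opposite strand, Dclre1c, 4080 and 5615.

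The H3K9 demethylases were led by Kdm3a at 71.3 and 80.1 TPM and Kdm3b at 55.4 and 50 TPM, both for mono- and dimethyl H3K9. That order turned over on protein-coding transcripts, where Kdm3a was 0.539 and 0.663 times Kdm3b. The KDM4 genes, whose enzymes remove di- and trimethylation of H3K9 and H3K36, followed in the order Kdm4a (42.9 and 39.6 TPM), Kdm4c (31.7 and 29.5 TPM) and Kdm4b (17.2 and 14.5 TPM). That KDM4 order held on protein-coding transcripts, but in the second transcript table the ranges of these genes overlapped. By the deposited posterior mean TPM Kdm4b was highest, at 60.9, against 37.9 for Kdm4a and 28.8 for Kdm4c. Kdm7a, for H3K9 and H3K27, had 17.9 and 15.7 TPM. Dot1l (chr10:80755206-80795461, plus strand), the H3K79 methyltransferase gene, had 69.8 and 49.2 TPM, and no eraser of that mark was in the set.

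Summed over the enzymes of the set, writer RNA exceeded eraser RNA for 4 of the 5 marks with both roles. For acetylation, H3K36 and H3K27 that order depended on which genes were counted, as given below. For acetylation the 9 writers summed to 266 and 251 TPM in replicates 1 and 2, and the 7 erasers to 157 and 127 TPM, a ratio of 1.84 ± 0.195. For H3K4 the 6 writers summed to 334 and 287 TPM, and the 3 erasers to 92.0 and 94.9 TPM, a ratio of 3.33 ± 0.428. In both marks the lower writer sum lay above the higher eraser sum. Deacetylase genes outside the set were not in these sums, among them Sirt7 (105 and 99.5 TPM) and Sirt2 (59.7 and 55.2 TPM). The acetyltransferase gene Hat1, also outside, had 6.74 and 5.39 TPM. Sirt7 and Sirt2 together exceed the gap between the writer and eraser sums in both libraries, also with Hat1 counted as a writer. The order of writers over erasers for acetylation therefore holds only for the genes chosen.

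For H3K36, the 2 writers summed to 210 and 182 TPM and the 2 erasers to 116 and 107 TPM (1.76 ± 0.0815). With the 3 KDM4 genes counted as H3K36 erasers instead, writers and erasers were level, at 1.01 and 0.954. For H3K27, Ezh1 and Ezh2 summed to 51.8 and 52.3 TPM, against 16.6 and 12.3 TPM of Kdm6b (3.67 ± 0.789). With Kdm7a counted for H3K27 the ratio was 1.5 and 1.86, and with Kdm6a added instead it turned to 0.677 and 0.755, so the H3K27 value holds only for the genes chosen.

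For H3K9 no order could be read. The 4 writers summed to 271 and 219 TPM and the 6 erasers to 236 and 229 TPM, so that writers were above erasers in replicate 1 (1.15) and below them in replicate 2 (0.954). Sums depend on how many enzymes are listed. Median levels over enzymes were 21.2 ± 1.17 TPM for writers and 15.4 ± 0.339 TPM for erasers of acetylation, and 52.5 ± 7.77 TPM for writers and 24.4 ± 2.20 TPM for erasers of H3K4.

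**Figure D2:**
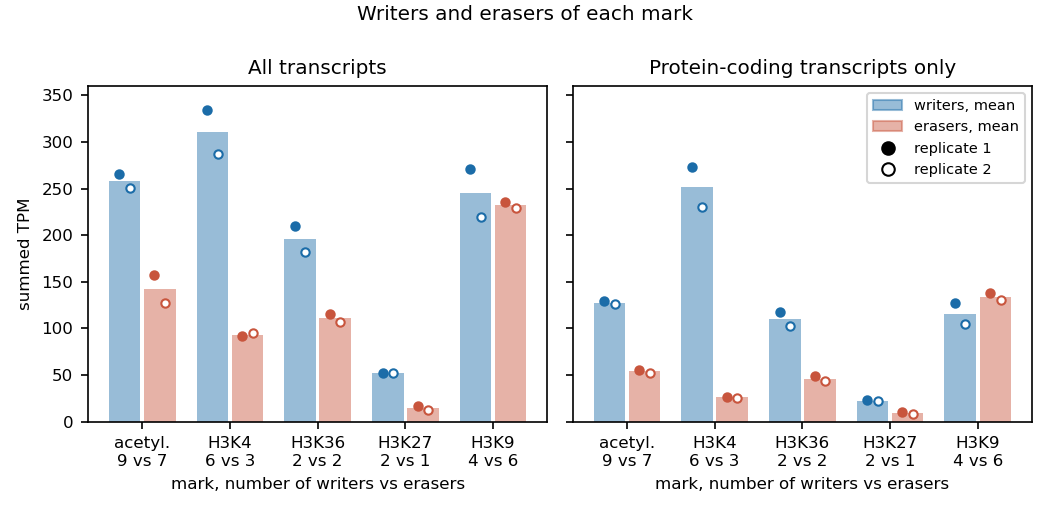
Summed TPM of writers and erasers of each mark, over all transcripts (left) and protein-coding transcripts (right); bars are the mean of both libraries and points the libraries. Writers exceed erasers for acetylation, H3K4, H3K36 and H3K27 in both panels, while for H3K9 the protein-coding sums are 127 and 105 TPM for writers and 138 and 130 TPM for erasers.

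Restriction to protein-coding transcripts moved the member median further than the difference between the libraries. On protein-coding transcripts the member median was 15.1 TPM, against 5.37 TPM for detected protein-coding genes. In 20 of 47 members these transcripts held under 50% of the gene's TPM in both libraries, beside 45.1% of the 8609 protein-coding genes with several transcripts and a mean of 50 counts or more. The H3K4 ratio of writers over erasers grew to 10.1 and 9.18, with writer sums of 273 and 230 TPM and eraser sums of 26.9 and 25.0 TPM. Kmt2d kept 100.0% and 98.4% of its TPM on coding transcripts, whereas Kdm5a kept 22.9% and 22.6%. Hdac5 kept 21.6% and 22.3%, and Eed the least, 14.5% and 11.6%.

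**Figure D3:**
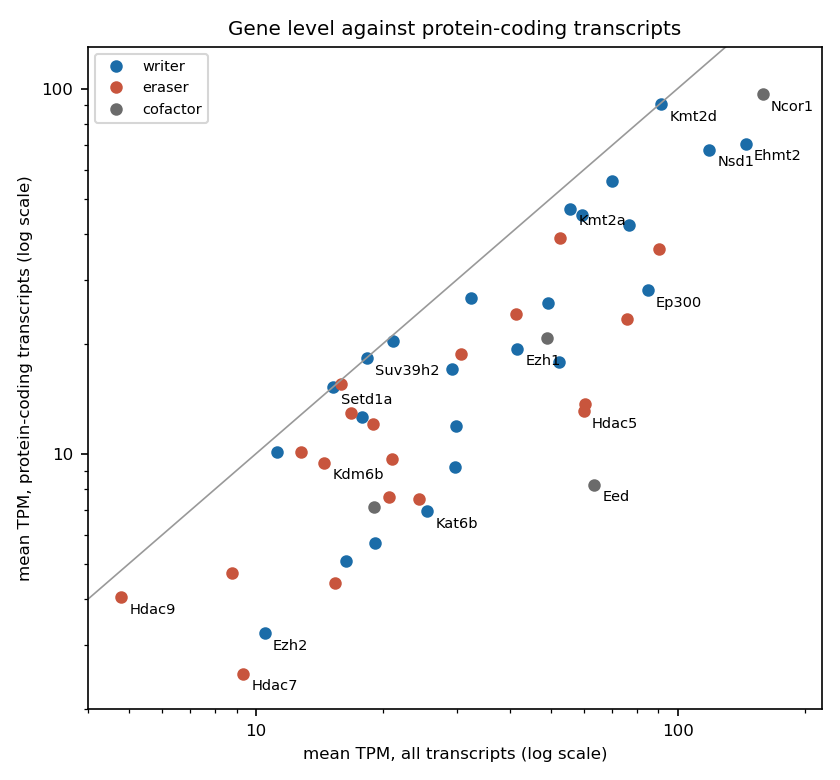
Mean TPM over protein-coding transcripts against mean TPM over all transcripts, both axes log, 1 point per gene coloured by role; the line marks equal values. Kmt2d, Suv39h2 and Setd1a lie on the line, while Eed falls to 8.23 TPM and Hdac5 to 13.1 TPM.

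The transcript with the largest share of TPM was the same in both libraries for 39 of 47 members, beside 76.5% of those 8609 genes. It was protein-coding in 24 members (46.6% of the 8609 genes), a retained-intron transcript in 14 (24.0%) and of another class in 1 (Kat2a). For 19 members both transcript tables and both libraries named the same one, beside 38.0% of the genes. These counts are given as a description of the members. Examples are Kmt2a-201, with 69.8% and 79.6% of the Kmt2a TPM, and Setdb1-204, the retained-intron transcript of Setdb1, with 43.2% and 40.1%.

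Retained-intron transcripts are annotated for 34 members and not for the other 13. Of the 34, 14 had a mean share of 50% or more of their TPM on such transcripts, against 48.1% of protein-coding genes with such a transcript and the same depth. The median share was 46.2% over members and 49.0% over those genes. Of expected counts rather than TPM, the median share was 19.4% over members and 31.2% over the same genes. The TPM share exceeded the count share in 30 of 34 members, and in 76.9% of those genes.

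By TPM the highest share was that of Eed, at 85.5% and 88.4%, beside 54.8% and 61.1% of its counts. Kat6b followed with 71.9% and 72.5% of TPM, Kat8 with 73.2% and 67.3%, Kdm1a with 66.6% and 71.8% and Setdb1 with 72.2% and 65.8%. In counts these were 58.5% and 59.1% for Kat6b, 60.2% and 54.5% for Kat8, 33.8% and 39.8% for Kdm1a and 68.6% and 62.7% for Setdb1. The Setdb1 transcript whose boundaries are printed above had 713 and 1007 expected counts, the most among these 5 genes. By counts the order differed, and the highest share was that of Hdac7, at 81.9% and 72.0%, beside 71.3% and 66.1% of its TPM.

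At the other end, Kdm3b had 9.77% and 10.2% of TPM on retained-intron transcripts, Kat2b 5.85% and 14.8% and Hdac9 15% and 12%. In Polycomb repressive complex 2, Suz12 had 62.0% and 60.6% of TPM but 13.7% and 13.5% of counts on such transcripts, and Ezh2 50.3% and 55.0% of TPM and 49.4% and 53.4% of counts. The leading Ezh2 transcript, Ezh2-207, spans 3 whole coding introns and had 49.7 and 77.2 counts. Reads in introns outside any annotated transcript were not in these tables.

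**Figure D4:**
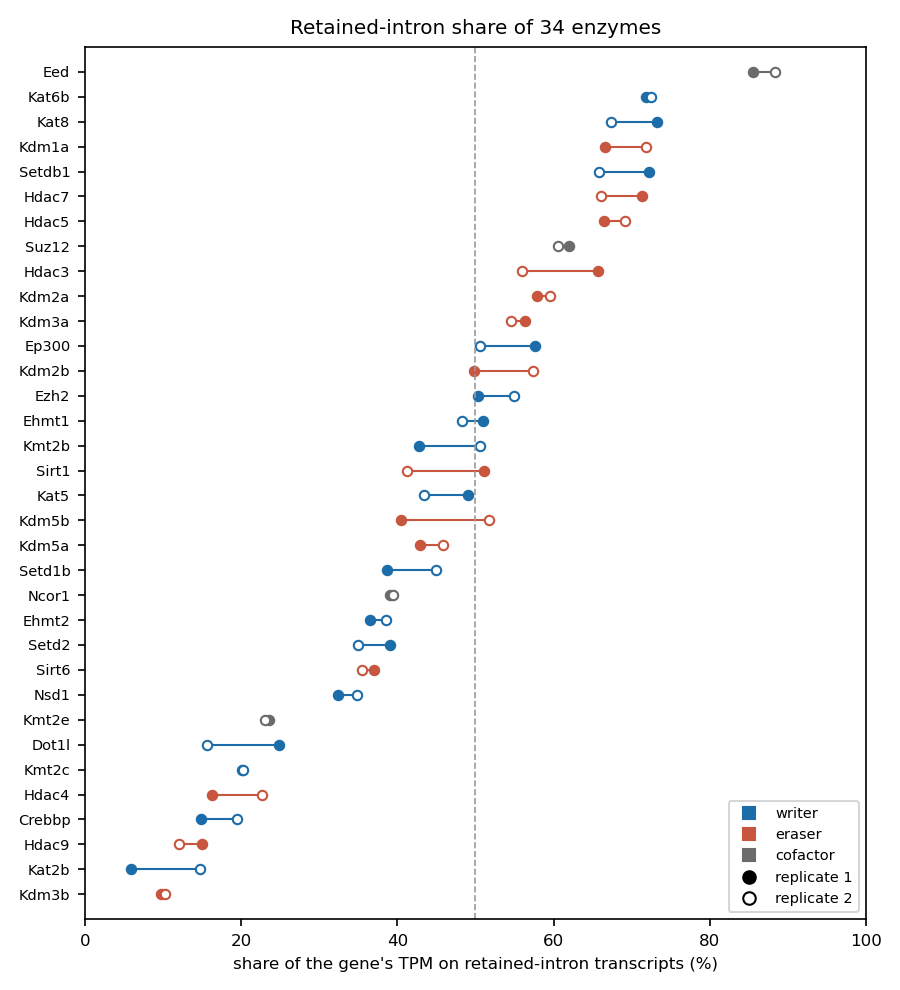
Share of each gene's TPM on retained-intron transcripts in percent, for the 34 members with such a transcript, ordered by the mean; filled points are replicate 1, open points replicate 2, colours give the role and the dashed line marks 50%. Eed is highest at a mean of 86.9% and Kdm3b lowest at 9.97%.

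No member differed 2-fold between the libraries. On counts scaled by trimmed mean of M-values (TMM), 0 of 47 members passed 2-fold, against 0.220% of protein-coding genes that averaged 50 counts or more. The log2 ratio of replicate 2 over replicate 1 had a median of -0.05 over members and ran between -0.37 (Kmt2d) and 0.28 (Sirt1). Direction was uneven by role: 18 of 24 writers were lower in replicate 2, as were 10 of 19 erasers and 0 of 4 cofactors, beside 4150 of 9109 protein-coding genes (45.6%). All 6 H3K4 writers and all 4 class IIa deacetylases were lower, by between 0.09 (Kmt2c) and 0.37 (Kmt2d) on the log2 scale.

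GC content moved with this difference. Across the 47 members, the GC content of the leading protein-coding transcript and the log2 ratio had Pearson's r of -0.71 and Spearman's rho of -0.67, and across 9090 protein-coding genes r was -0.21 and rho -0.26. These are correlations across genes of the same 2 libraries, which are not independent replicates. The members lower in replicate 2 include Hdac4 (GC 62.3%), Hdac7 (61.9%) and Ehmt2 (60.2%). The libraries also differ in RNA input, and the part of either in the result was not tested.

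**Figure D5:**
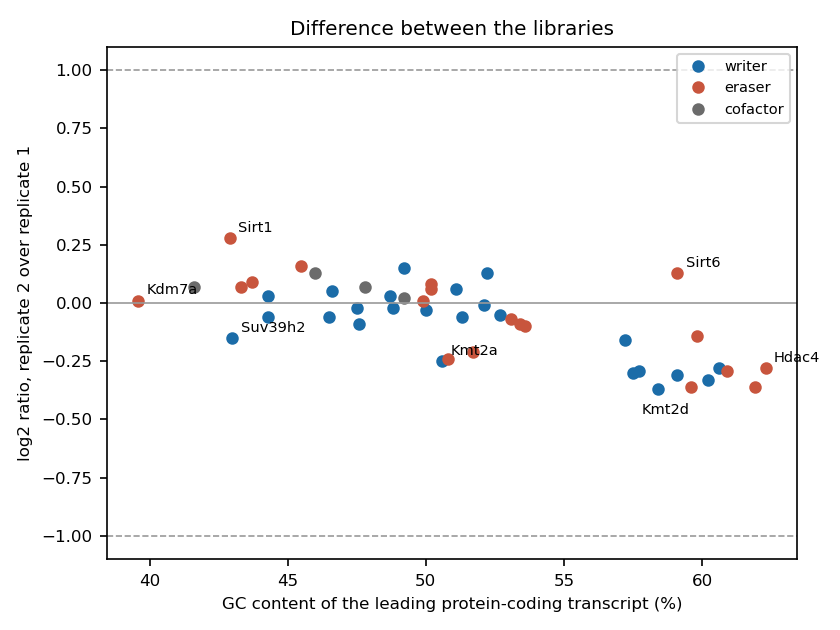
Log2 ratio of replicate 2 over replicate 1 (TMM-scaled expected counts) against the GC content of each gene's leading protein-coding transcript in percent, 1 point per member coloured by role; dashed lines mark 2-fold. All points lie between -0.37 and 0.28, and most members above 57% GC lie below 0.

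The second transcript table was made from the same reads. Its TPM differed 2-fold from the gene table in the same direction in both libraries for 0 of 47 members, against 5.50% of protein-coding genes. Relative to the median ratio of each library it was again 0, against 6.11%. The nearest were Kat7, at relative log2 ratios of 0.84 and 0.82 in replicates 1 and 2, and Kdm4b, at 1.02 and 0.76. The 17.2 and 14.5 TPM of Kdm4b in the gene table became 31.3 and 34.7 TPM in the second table. Kat7 had 30.8 and 41.6 TPM there, while Kat2a (10.5 and 13.5 TPM) was lower relative to the median, by 0.65 and 0.58 on the log2 scale. Over the 11 paralog pairs, 10 did not overlap between libraries, a count that was not made over other pairs of genes. Of the 11, 6 kept their order in the gene table, on protein-coding transcripts and in the second table. They were Ezh1 over Ezh2, Ehmt2 over Ehmt1, Kdm2a over Kdm2b, Kdm5a over Kdm5b, Kmt2d over Kmt2c, and Kmt2a over Kmt2b, whose ranges overlapped.

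Some members share sequence or exon bases with other genes. The posterior SD of the count, the deposited measure of reads that could belong elsewhere, was 0 in both libraries for 30 of 47 members. It was highest for Kdm3b (19.7 and 39.5 counts, of 2429 and 3272) and Setd1a (19.8 and 31.1 counts). By annotation, 23 members share an exon base with another gene and 4 share 10% or more of their exon bases: Setd1a, Kdm3b with Gm26538 (24.6%), Hdac4 with Gm26720 (22.4%) and Kat5 with Rnaseh2c (12.1%). In 13 members a neighbour that shares bases held 10% or more of the counts of the member in a library. Those counts are of the whole neighbour gene, not of the shared bases. With strand use not stated, reads in the shared bases cannot be told apart. None of these member counts was made over other protein-coding genes, so they describe the members only.

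Other enzymes of these families and subunits of their complexes, from lists chosen by name, were mostly detected too. Of 27 further family members 25 reached 1 TPM in both libraries, with a median of 16.2 ± 0.884 TPM. Sirt7, an H3K18 deacetylase gene, was highest at 105 and 99.5 TPM, followed by Nsd3 at 84.5 and 83.8 TPM. Kdm8 (0.940 and 0.870 TPM) and Kdm4d (0.09 and 0.10 TPM) were lowest. Of 23 subunit genes, all 23 were detected with a median of 21.9 ± 1.23 TPM. Trrap, the scaffold of TIP60 and GNAT complexes, had 110 and 91.5 TPM, and Ing4, a subunit of HBO1 complexes, 66.8 and 57.3 TPM. Tada2b of the GNAT complex (1.93 and 2.95 TPM) and Phf19 of Polycomb repressive complex 2 (1.21 and 1.22 TPM) were lowest.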

How the data were processed

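The authors deposited a gene table and a pair of transcript tables for each library. The notes that came with the files name GENCODE M21 and mm10; the first transcript table, like the gene table, came from an alignment to transcripts and the second from reads and a transcript index. Which aligner and counter made them is a point not given in the sources used here. Expected counts, as deposited, are estimated read numbers that need not be whole. The deposited TPM values are expected counts per effective length, scaled to a fixed sum. A posterior mean TPM and one other value, the spread (SD) of each count's posterior, are also deposited. Strand use is not stated, so overlapping genes on opposite strands cannot be told apart.

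Entries that are no annotated gene (0.338% and 0.270% of counts) were left out of totals. A count of 0 allows up to 3 counts, 0.274 and 0.212 RPM in replicates 1 and 2, by counting error only. Detection was 1 TPM in both libraries. Expected counts were rounded for scaling with TMM in edgeR 4.0.16 or DESeq2 1.42.0 (R 4.3.3), and log2 ratios used counts plus 0.5. The log2 ratio was tested on simulated counts with the library sizes taken as known, so the estimate of the scaling was not tested. Python 3.11.15 with pandas 2.3.3 and matplotlib 3.10.9 did the rest. Members are named in full. Library values were to be given for the 2 highest and the lowest of each mark and role, the paralog pairs and the 5 highest and 3 lowest retained-intron shares, and of other genes for the 2 highest and 2 lowest of each list. Values of further genes were added after they were seen. Members and lists were chosen with earlier results of these data known.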

Additional observations from a re-analysis of the deposited data

How the results depend on the processing

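No paired analysis was possible because the libraries form 1 group. Leaving out each library gave 47 detected members each time, which was fixed in advance because all 47 passed in both libraries. The other values are those of each library alone. They were a member median between 29.4 and 29.5 TPM and a retained-intron share between 46% and 47%. Writer over eraser ratios were 1.70 to 1.97 (acetylation), 3.03 to 3.63 (H3K4), 1.70 to 1.82 (H3K36), 3.12 to 4.23 (H3K27) and 0.954 to 1.15 (H3K9). The member median was 36.2 TPM in the second transcript table, 28.7 by posterior mean, 116 rescaled over nuclear protein-coding genes and 15.1 on protein-coding transcripts. On protein-coding transcripts the ratios were 2.37 (acetylation), 9.66 (H3K4), 2.39 (H3K36), 2.44 (H3K27) and 0.864 (H3K9). The second table gave 1.23 for H3K36, 5.44 for H3K27 and 0.737 for H3K9, and the posterior mean 0.860 for H3K9. Medians over enzymes gave 1.38 (acetylation), 2.15 (H3K4) and 1.84 (H3K27). Further settings were chosen after seeing the data. The other enzymes of a mark gave 2.30 (H3K4), 3.36 (H3K36) and 0.716 (H3K27, turned round). KDM4 genes counted for H3K36 gave 1.69 for H3K9 and 0.983 for H3K36, which was level at 1.01 and 0.954 in replicates 1 and 2. Kdm7a counted for H3K27 gave 1.68 (H3K27). These follow from the genes counted. The cause of the other shifts was not tested. No other enzyme was added for acetylation, so its ratio was not examined in that setting. The retained-intron share was 19.4% of counts and 43.1% at 500 counts or more (20 members). At 1.5-fold, 2 members differed between tables (Kat7 and Kdm4b). The posterior mean of Kdm4b was 3.84 times its TPM. No member passed 2-fold between libraries under any of 5 other settings, though on TPM 36 of 47 were lower in replicate 2, against 28 on TMM-scaled counts. The setting without the filter on counts could not differ, because all 47 members passed that filter. With 2 libraries no difference could be tested, and members such as Kat8 (139 and 196 counts) and Hdac9 (148 and 177) rest on few counts.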
